A study of Mus musculus with 6 samples.

Results

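The Serpina3 genes of the mouse lie side by side on chromosome 12 and encode closely related serpins, here read in ear skin with and without Ufl1 in keratinocytes. The members are the rows of the deposited gene table named Serpina3b, Serpina3c, Serpina3f, Serpina3g, Serpina3h, Serpina3i, Serpina3j, Serpina3k, Serpina3m and Serpina3n, which makes 10 genes of the 54532 in the table. The cluster was selected on measured values of the same contrast, because Serpina3j was among the few genes called between the groups, so all differences of the members between cKO and control are given as a description and carry no test. Bulk RNA of whole ear skin was sequenced, with mice aged 3 months in both groups. The 3 control libraries are labelled with the genotype Ufl1f/+or Ufl1f/f, and the labels do not say which control had which. The 3 libraries of the conditional knockout, cKO below, are labelled Ufl1f/f KRT14Cre/+, so that Cre is made under the keratin 14 promoter, a promoter of the basal keratinocytes of epidermis, hair follicle and sebaceous gland. The label of the controls names no Cre, so the loss of Ufl1 and the presence of Cre cannot be told apart. Ufl1 encodes the E3 ligase of ufmylation, the coupling of a small ubiquitin-like modifier to proteins, and Cre is not aimed at the fibroblasts, immune cells and other dermal cells of the ear. The labels do not say whether each library is a separate mouse, so all errors below measure the spread between these libraries.

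Serpins are protease inhibitors that present a flexible loop to a serine or cysteine protease, are cut, and trap the enzyme in an inactive complex. Human SERPINA3 encodes alpha-1-antichymotrypsin, a plasma protein of the acute phase response that is made mostly in the liver and inhibits cathepsin G and chymase. In the mouse this locus has been copied many times, and the copies differ mainly in the reactive loop that chooses the protease.

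Library totals ranged from 17256339 to 20776539 counts, and 17318 genes had enough counts for the test. Levels are given in CPM, the count scaled by library total and TMM factor, and always in the order of libraries 1, 2 and 3. Ufl1 itself had a level of 57.8, 46.9 and 46.1 CPM in the control group and of 34.8, 35.6 and 38.7 CPM in the cKO group, so that each cKO library was below each control. Libraries stood apart within the groups. The fibroblast markers Col1a1, Col1a2, Col3a1, Pdgfra and Dcn were all lowest in control 2, with a summed level of 9407 CPM there and of 15116 to 24420 CPM in the other 5 libraries. In cKO 3, 13 of the 15 tested genes of the interferon gamma list had their highest level. The keratinocyte markers were present in each library at a summed level of 6052 to 13976 CPM. Hepatocyte markers were close to absent, with a sum over 8 genes of 2.45 to 6.23 CPM and Fgb, a fibrinogen chain of the liver, at 0 counts in every library.

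The 10 genes span 286.334 kb in the build mm10, from chr12:104127996 to 104414329. Of these, 9 lie on the plus strand and Serpina3c lies on the minus strand. Serpina3h is annotated as a transcribed unprocessed pseudogene and the other 9 as protein coding. The model of Serpina3m (chr12:104338486-104394257) begins at the same base as that of Serpina3k (chr12:104338486-104346144) and runs over it, so counts in the shared part cannot be assigned with certainty. Another 4 rows, Serpina3a and the pseudogenes Serpina3d-ps, Serpina3e-ps and Serpina3l-ps, held between 0 and 17 counts per library.

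The members did not move as one. Of the 10 genes, 8 passed the filter on low counts and Serpina3f and Serpina3k did not. edgeR's quasi-likelihood test over the whole table put 1 of the 8, Serpina3j, lower and 0 higher at a Benjamini-Hochberg adjusted p under 0.05, beside 0.00577% of all tested genes called lower and 0.0115% called higher. The edgeR call of Serpina3j was kept without control 2, where Serpina3b was called too, and was lost without any 1 of the other 5 libraries. DESeq2 put 2 lower, Serpina3b and Serpina3j, and 0 higher, beside 0.139% of all genes called lower and 0.387% called higher. The 3 cKO values lay below all 3 control values in 2 of the 8, above them in 0, and overlapped with them in 6, while 4.81% of all tested genes lay apart in the lower direction and 5.73% in the higher. Because this contrast chose the cluster, nothing is read from these counts. The median log2 fold change of the 8 genes was -0.11, against -0.01 over all tested genes.

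**Figure D1:**
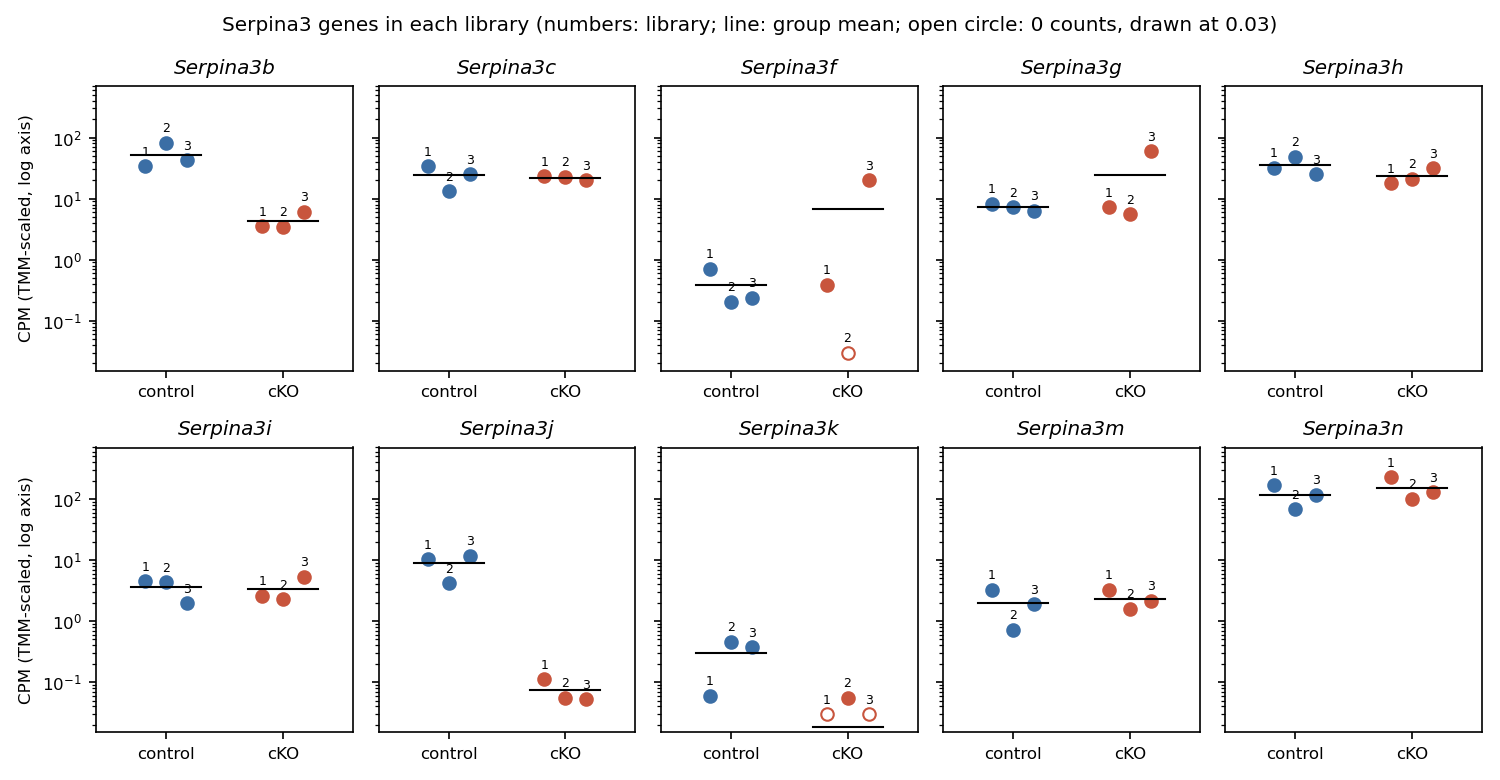
Level of each of the 10 Serpina3 genes in each library, in TMM-scaled CPM on a log axis, with blue points for control 1 to 3, red points for cKO 1 to 3 and a line at the group mean. Among the tested genes Serpina3b and Serpina3j separate the groups. The untested Serpina3k is at a level near 0, with 1 count in control 1 and 1 count in cKO 2. Serpina3g and Serpina3f stand out in cKO 3 alone, and the remaining tested genes overlap.

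Of the 8 tested members, Serpina3j and Serpina3b were lower in each cKO library than in each control. Serpina3k, which had too few counts to be tested, also lay lower in all 3 in CPM, but control 1 and cKO 2 each held 1 count. It is described with the remaining members. Serpina3j (ENSMUSG00000079013, chr12:104314553-104320725) held 174, 82 and 252 counts in controls 1 to 3 and 2, 1 and 1 counts in cKO 1 to 3. The gene was thus expressed in each control and nearly lost in each cKO library, with no overlap. The level was 8.82 ± 4.06 CPM (SD, n = 3) in controls and 0.073 ± 0.033 CPM (SD, n = 3) in cKO, a log2 fold change of -6.80 (SE 0.61). Over the summed reads, 508 against 4 counts, the controls were 124-fold higher, with an exact 95% interval of 48.1 to 456 that covers counting error only.

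Serpina3b (ENSMUSG00000066364, chr12:104127996-104139545) held 564, 1590 and 905 counts in the controls and 63, 62 and 117 counts in cKO. Here too the groups did not overlap, but a clear signal was left in each cKO library. The level was 52.7 ± 25.6 CPM (SD, n = 3) in controls and 4.35 ± 1.53 CPM (SD, n = 3) in cKO, a log2 fold change of -3.59 (SE 0.40). The count ratio was 12.3, with an exact interval of 10.8 to 14.1 that covers counting error only and not the spread between libraries. The 2 genes did not keep the same order among the controls, since control 2 was the highest for Serpina3b at 81.8 CPM and the lowest for Serpina3j at 4.22 CPM. They are not neighbours either: 175.008 kb and 5 of the other members lie between them.

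Their transcripts were each other's nearest within the cluster, with 81.0% identity over 1989 aligned bases. Exact stretches of 50 bases shared with any other Serpina3 transcript made up 2.9% of the windows of Serpina3b and 3.1% of those of Serpina3j, and no window of 100 bases was shared for either. The length of the sequenced reads is unknown here. The windows around their start sites are printed because these are the 2 tested members whose groups did not overlap. Each has 300 bases from 250 before to 50 after the RefSeq start on GRCm38.p6, plus strand, 5′ to 3′, with any TATAAA in capitals.
Serpina3b: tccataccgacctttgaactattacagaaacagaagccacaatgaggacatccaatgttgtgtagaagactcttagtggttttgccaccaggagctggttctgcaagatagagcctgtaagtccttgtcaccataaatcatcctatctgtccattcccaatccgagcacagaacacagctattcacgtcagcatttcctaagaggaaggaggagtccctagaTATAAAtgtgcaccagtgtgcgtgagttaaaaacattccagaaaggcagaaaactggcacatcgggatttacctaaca
Serpina3j: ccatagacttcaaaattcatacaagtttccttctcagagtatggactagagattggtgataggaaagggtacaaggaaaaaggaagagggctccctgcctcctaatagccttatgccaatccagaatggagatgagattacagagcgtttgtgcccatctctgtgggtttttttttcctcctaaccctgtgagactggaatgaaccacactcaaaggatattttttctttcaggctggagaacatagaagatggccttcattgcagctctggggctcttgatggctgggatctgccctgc
The Serpina3b window covers chr12:104127746-104128045 and the Serpina3j window chr12:104314320-104314619. Serpina3b holds 1 TATAAA, with its first base at -28 from the start. The Serpina3j window has none, and fewer than 100 of its bases could be aligned with the window of any other member. The 50 bases from its RefSeq start on begin with ATG. This start may thus lie at a first codon and not where transcription begins, so nothing is read from the missing TATAAA or the poor alignment.

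Some markers of hair follicle and sebaceous gland were lower in the same libraries, and others were not. Krt15, a keratin of the follicle bulge, was at 445, 1373 and 729 CPM in controls and at 213, 247 and 373 CPM in cKO. Scd3, a desaturase of the sebaceous gland, was at 15.4, 39.2 and 16.7 CPM in controls and at 2.89, 0.44 and 2.30 CPM in cKO. Both separated the groups with control 2 highest, as for Serpina3b. A high value in control 2 was not particular to these genes. All 4 Schwann cell markers were highest there too, with negative log2 fold changes. Mbp among them was also below the controls in each cKO library. Scd3 had a log2 fold change of -3.66 (SE 0.63), with an adjusted p of 0.309 by edgeR and 1.2e-07 by DESeq2. Krt15 had one of -1.61 (SE 0.41), with an adjusted p of 0.650 by edgeR and 0.0103 by DESeq2. The summed hair follicle list (Krt15, Lhx2, Sox9, Lgr5, Cd34) ran from 953 to 1653 CPM in controls and from 629 to 732 CPM in cKO, and the summed sebocyte list (Scd3, Mc5r, Elovl3, Cidea, Awat1) from 358 to 983 CPM and from 390 to 422 CPM. Of the other hair follicle markers, Lgr5, a stem cell receptor, was also below the controls in each cKO library (log2 fold change -0.68, SE 0.21), while Lhx2, Sox9 and Cd34 overlapped, the last 2 with fold changes of 0.03 and 0.04. Of the other sebocyte markers, Elovl3, Cidea and Awat1 overlapped, and Mc5r, a melanocortin receptor, was higher in each cKO library (0.48, SE 0.20). None of the genes of either list was at 0 in all libraries. In bulk tissue, fewer cells of a type and less RNA per cell cannot be told apart, and the part of these structures in the values of Serpina3b and Serpina3j was not tested.

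**Figure D2:**
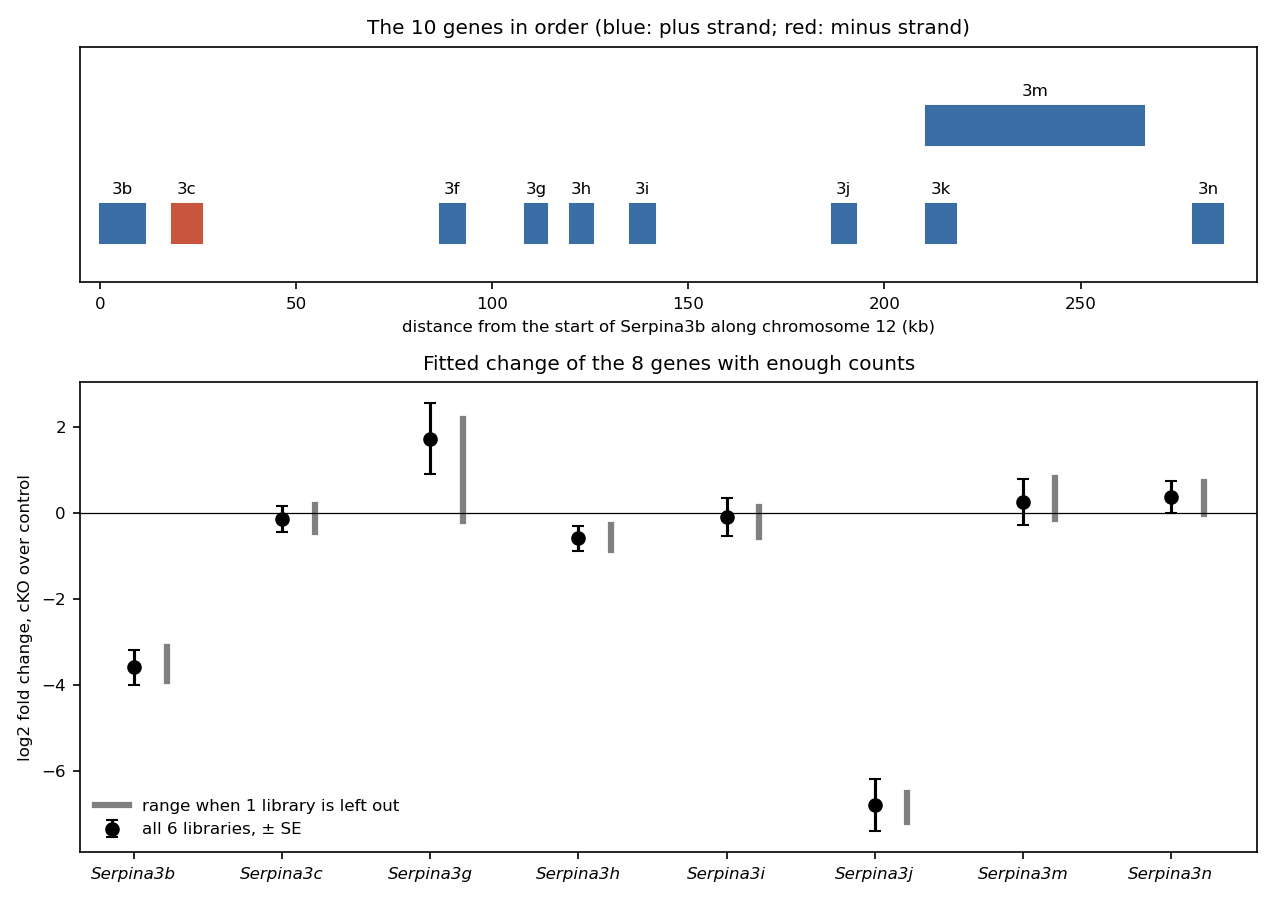
Upper panel, the 10 genes drawn to scale by distance in kb from the start of Serpina3b, blue for the plus and red for the minus strand. Lower panel, log2 fold change of cKO over control for the 8 genes with enough counts, with points and bars for the estimate and its SE from all 6 libraries and grey bars for the range when 1 library is left out; the grey bars of Serpina3b, Serpina3h and Serpina3j stay below 0 and those of the other 5 genes cross it.

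Serpina3g and Serpina3f were high in a single library, cKO 3. Serpina3g encodes an intracellular serpin that inhibits cysteine cathepsins and is known to be induced by interferon gamma in macrophages. Serpina3g (ENSMUSG00000041481, chr12:104236245-104241939) was at 8.28, 7.20 and 6.32 CPM in controls and at 7.18, 5.60 and 59.5 CPM in cKO. Outside cKO 3 all libraries were close together, and the groups overlapped. The log2 fold change of 1.73 (SE 0.83) turned to -0.18 (SE 0.27) without cKO 3. Serpina3f (ENSMUSG00000066363, chr12:104214544-104221129), whose end lies 15.116 kb before the start of Serpina3g, held 12, 4 and 5 counts in controls and 7, 0 and 383 counts in cKO. It was barely detected outside cKO 3, and the 0 counts of cKO 2 allow up to 0.166 CPM, a limit that covers counting error only. For Serpina3f the authors' deposited table lists a log2 fold change of 4.15, and for Serpina3g the authors' deposited table lists 1.74, both without a p-value.

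The transcripts of Serpina3f and Serpina3g were 88.8% identical over 1782 aligned bases, and 10.7% and 16.0% of their 50-base windows occur exactly in another Serpina3 transcript, which leaves room for shared reads. At 100 bases the shares were 3.6% and 4.6%. Serpina3h and Serpina3i, which lie on the other side of Serpina3g, reached 31.8 and 5.33 CPM in cKO 3, the highest of the 3 cKO values for each but within the range of the controls for Serpina3h and just above it for Serpina3i.

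The interferon gamma list had 15 tested genes, among them Gbp2 (a guanylate-binding protein) and the chemokines Cxcl9 and Cxcl10. The summed level of the list was 391, 288 and 336 CPM in controls and 414, 323 and 1569 CPM in cKO, high in cKO 3 alone. Cxcl9 was at 5.06, 1.90 and 1.70 CPM in controls and at 3.51, 2.22 and 238 CPM in cKO. Gbp2 was at 24.7, 9.62 and 15.3 CPM in controls and at 20.8, 15.0 and 260.0 CPM in cKO. Both followed Serpina3g in standing out in cKO 3 only. Of the 15 genes, 0 were called by edgeR in either direction and 8 had an unadjusted p under 0.05 with a higher level in cKO, beside 3.38% of all tested genes higher and 1.95% lower at that limit. DESeq2 also called 0 and gave no adjusted p for some, Cxcl9 and Gbp2 among them. The 3 with the smallest p were Cxcl10 (log2 fold change 4.50, SE 1.36, adjusted p = 0.782), Cxcl9 (4.84, SE 1.74, adjusted p = 0.857) and Tap1, a peptide transporter for antigen presentation (1.41, SE 0.56, adjusted p = 0.894), each by edgeR. The median log2 fold change of the list was 1.25 with all libraries and 0.11 without cKO 3, where 1 of the 15 had an unadjusted p under 0.05 and a higher level, beside 2.24% of the genes tested then. T cell markers summed to 35.4, 35.8 and 41.0 CPM in controls and to 26.0, 26.2 and 57.4 CPM in cKO, again highest in cKO 3. The highest level lay in cKO 3 for 4 of the 5 tested genes of that list. The exception was Trdc, at 15.4, 13.3 and 13.8 CPM in controls and at 6.57, 6.60 and 12.6 CPM in cKO. Each cKO library was thus below each control for Trdc. Ifng itself was at 1.57 CPM in cKO 3 and at no more than 0.060 CPM elsewhere. The part of immune cells in the levels of Serpina3g and Serpina3f was not tested.

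The bases upstream of the Serpina3g start are shown because a short site in them is kept in some members and altered in others. A search of the 300-base RefSeq windows, on both strands, used TTCNNNGAA (a palindromic motif), GAAA, any 2 bases and GAAA again (an interferon response element), ACANNNTGT (the spacing of a glucocorticoid core) and TATAAA. Windows were found for 7 of the 10 members, and Serpina3h, Serpina3k and Serpina3m had none. TTCNNNGAA occurred in Serpina3g with its first base at -33, in Serpina3i at -102 and in Serpina3f at -121, and it occurs in 8.3% of 32851 windows of all genes. The position of -33 holds for the RefSeq start only. The Serpina3g window ends at chr12:104236196, before the gene start given above (chr12:104236245), so the site lies further from that start. The lines give 49 bases around the site of Serpina3g and the matching stretch of other members, 5′ to 3′ on the strand of the gene, with the 9 bases of the site in capitals.
Serpina3g: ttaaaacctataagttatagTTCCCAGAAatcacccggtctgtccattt
Serpina3i: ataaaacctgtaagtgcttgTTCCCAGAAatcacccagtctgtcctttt
Serpina3f: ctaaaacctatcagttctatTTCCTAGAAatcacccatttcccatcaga
Serpina3c: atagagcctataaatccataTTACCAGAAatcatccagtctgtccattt
Serpina3n: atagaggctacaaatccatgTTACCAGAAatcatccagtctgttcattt
Serpina3b: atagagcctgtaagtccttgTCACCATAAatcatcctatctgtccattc
The Serpina3g stretch is chr12:104236094-104236142 on the plus strand of GRCm38.p6 and the Serpina3c stretch is chr12:104153964-104154012 on the minus strand. Counted from 1 at the 5′ end of the site and with the base of Serpina3g first, the site of Serpina3i is the same, that of Serpina3f differs by C5T and still fits the motif, and those of Serpina3c and Serpina3n differ by C3A. Serpina3b differs by T2C, C3A and G7T. Of the 49 bases, compared without gaps, Serpina3i matched 42, Serpina3c 37, Serpina3n and Serpina3b 35 each, and Serpina3f 32. The low value of Serpina3f does not hold for the whole window. With gaps allowed, its window with the site at -121 was 83.7% identical to that of Serpina3g over 202 aligned bases. Serpina3i was at 81.7% over 229 and Serpina3c at 76.1% over 205.

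A match is a description of the letters and not a binding site. Serpina3i holds the same 9 bases as Serpina3g but was at 4.53, 4.37 and 1.98 CPM in controls and at 2.62, 2.27 and 5.33 CPM in cKO, so its level in cKO 3 was the highest of the 6 without standing apart as that of Serpina3g did. ACANNNTGT, present in 6.85% of all windows, was found as ACAGCTTGT in Serpina3c at -73, Serpina3f at -83, Serpina3i at -55 and Serpina3n at -76. TATAAA, present in 13.6% of all windows, was found in Serpina3c at -132 and, on the opposite strand, in Serpina3f at -186 besides Serpina3b. The interferon response element, present in 3.44%, was found in no member window. The Serpina3j window, which may not lie where transcription begins, held none of the 4 motifs. No matches overlapped.

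Serpina3n, Serpina3c and Serpina3m shared a low value in control 2. Serpina3n is a secreted inhibitor of granzyme B and leukocyte elastase and the member best known from inflamed tissue. Serpina3n (ENSMUSG00000021091, chr12:104406729-104414329) was the most abundant member, at 169, 68.4 and 117 CPM in controls and at 229, 101 and 131 CPM in cKO. The groups overlapped, with the lowest value in control 2 and the highest in cKO 1. The mean was 118 ± 50.3 CPM in controls and 154 ± 67.0 CPM in cKO (SD, n = 3 each). The fitted log2 fold change was 0.38 (SE 0.38), and it was -0.022 without cKO 1 and 0.73 without control 1. Its difference was thus within the spread of the libraries, which was 2.47-fold from lowest to highest among the controls alone.

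Serpina3c (ENSMUSG00000066361, chr12:104146382-104153870) was at 34.3, 13.1 and 25.3 CPM in controls and at 23.4, 22.9 and 19.9 CPM in cKO. The cKO values lay inside the range of the controls. The coefficient of variation was 43.9% in controls and 8.60% in cKO, and the log2 fold change was -0.14 (SE 0.31). Serpina3m (ENSMUSG00000079012) was at 3.28, 0.720 and 1.89 CPM in controls and at 3.28, 1.61 and 2.14 CPM in cKO, with a log2 fold change of 0.26 (SE 0.54). Here the groups overlapped as well.

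Dcn, a proteoglycan of fibroblasts, was at 6375, 1695 and 4439 CPM in controls and at 4009, 4394 and 3455 CPM in cKO, lowest in control 2 like these 3 genes. The macrophage markers summed to 601, 287 and 584 CPM in controls and to 733, 511 and 546 CPM in cKO, with 4 of 5 lowest in control 2. The neutrophil markers summed to 72.0, 5.09 and 11.4 CPM in controls and to 372, 38.7 and 58.7 CPM in cKO, with the lowest sum in control 2 and the highest in cKO 1, where Serpina3n was highest. In cKO 1 that sum was mostly S100a8 (186 CPM) and S100a9 (166 CPM), which encode calcium-binding proteins that other inflamed cells can make too. Of the defining neutrophil genes, Cxcr2, a chemokine receptor, was at 19.9 CPM in cKO 1 and at no more than 4.76 CPM elsewhere, Mpo was at 0.823 to 1.37 CPM in controls and at 0 to 0.167 CPM in cKO, and Ly6g was at 0 in cKO and at no more than 0.094 CPM in controls. The low value of control 2 was not particular to these cell types. All 5 mast cell markers and all 4 endothelial markers were lowest there too. By contrast, all 4 Schwann cell markers were highest there, and the keratinocyte markers had their highest sum there, 13976 CPM. The part of any of these cells in the levels of Serpina3n, Serpina3c and Serpina3m was not tested. The promoter windows of Serpina3c and Serpina3n were the most alike of the cluster, with 93.5% identity over 294 aligned bases, although the genes lie near opposite ends and on opposite strands.

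**Figure D3:**
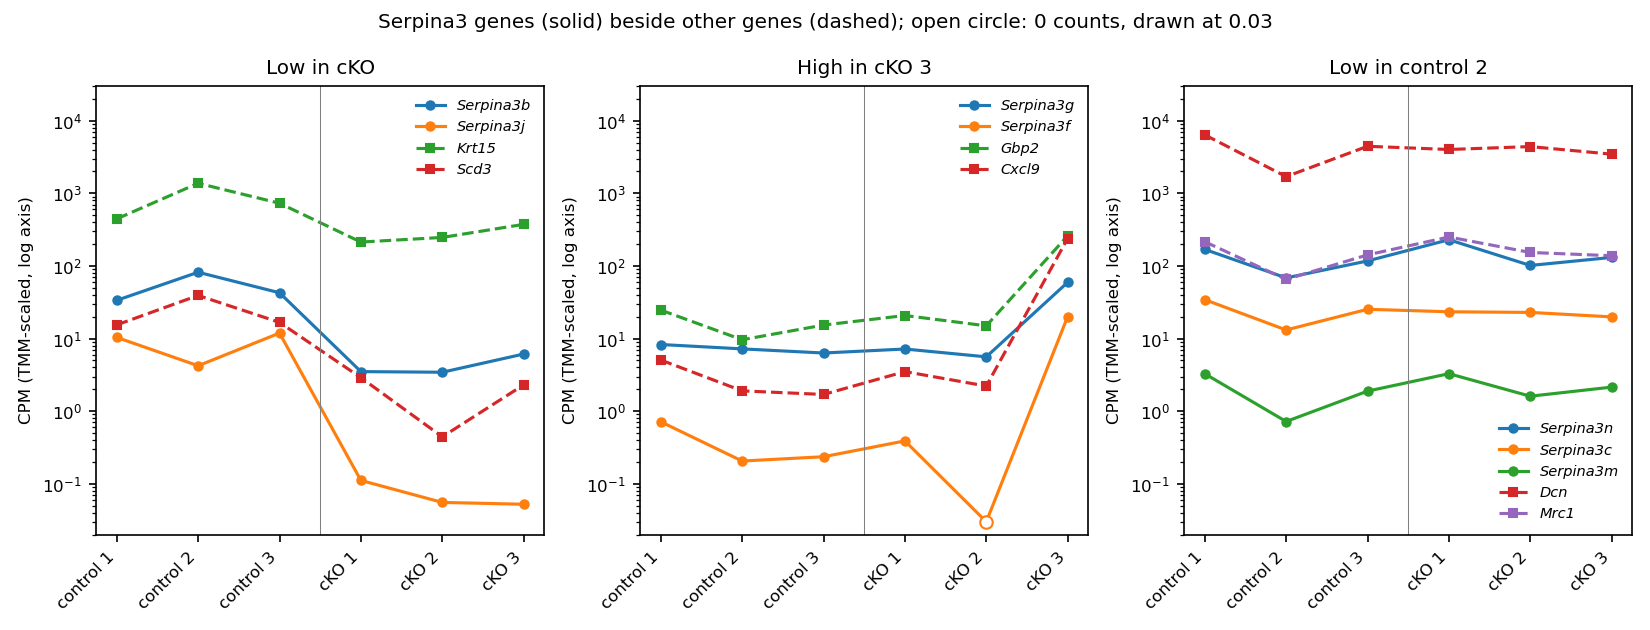
Levels in each library, in TMM-scaled CPM on a log axis, of Serpina3 genes (solid) beside other genes (dashed), with lines only joining the points of a gene. Left, Serpina3b and Serpina3j with Krt15 and Scd3, all lower in cKO; middle, Serpina3g and Serpina3f with Gbp2 and Cxcl9, all high in cKO 3; right, Serpina3n, Serpina3c and Serpina3m with Dcn and Mrc1, all low in control 2.

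The remaining members showed smaller differences or too few counts. Serpina3h (ENSMUSG00000041449, chr12:104247905-104253669) was at 32.3, 48.5 and 25.3 CPM in controls and at 17.9, 21.2 and 31.8 CPM in cKO. One cKO library fell within the range of the controls, and the log2 fold change was -0.58 (SE 0.29). Serpina3i (ENSMUSG00000079014, chr12:104263122-104269372) had a log2 fold change of -0.08 (SE 0.44). The transcripts of Serpina3h and Serpina3i were the most alike of all pairs, with 91.5% identity, and 24.4% of the 50-base windows of Serpina3h are found in another Serpina3 transcript, so the split of reads between them is uncertain. Serpina3k (ENSMUSG00000058207) held 1, 9 and 8 counts in controls and 0, 1 and 0 counts in cKO. Each cKO value was below each control value in CPM, and the levels were at the edge of detection in all libraries. The count ratio of 17.6 had an exact interval of 2.77 to 731, which covers counting error only.

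The summed level of the cluster does not depend on how the counted reads were split within it. Reads shared by several members would be missing from the sum if they were not counted, and their treatment is not given. The 10 genes together were at 296, 229 and 233 CPM in controls and at 288, 159 and 276 CPM in cKO. The groups overlapped, and the means of 253 ± 37.7 and 241 ± 71.3 CPM (SD, n = 3 each) gave a ratio of 0.952 with an error of 0.316 from the library spread. What differed was the make-up of the sum. Serpina3b supplied 11.3%, 35.7% and 18.3% of the Serpina3 counts in controls and 1.22%, 2.17% and 2.22% in cKO. Serpina3j supplied 3.48 ± 1.63% in controls and 0.0309 ± 0.0105% in cKO (SD, n = 3 each). Serpina3n supplied 57.0%, 29.9% and 50.2% in controls and 79.7%, 64.0% and 47.5% in cKO, which overlapped. In cKO 3, Serpina3g made up 21.6% and Serpina3f 7.26% of the sum, against 2.88 ± 0.230% and 0.144 ± 0.0843% in controls (SD, n = 3 each).

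**Figure D4:**
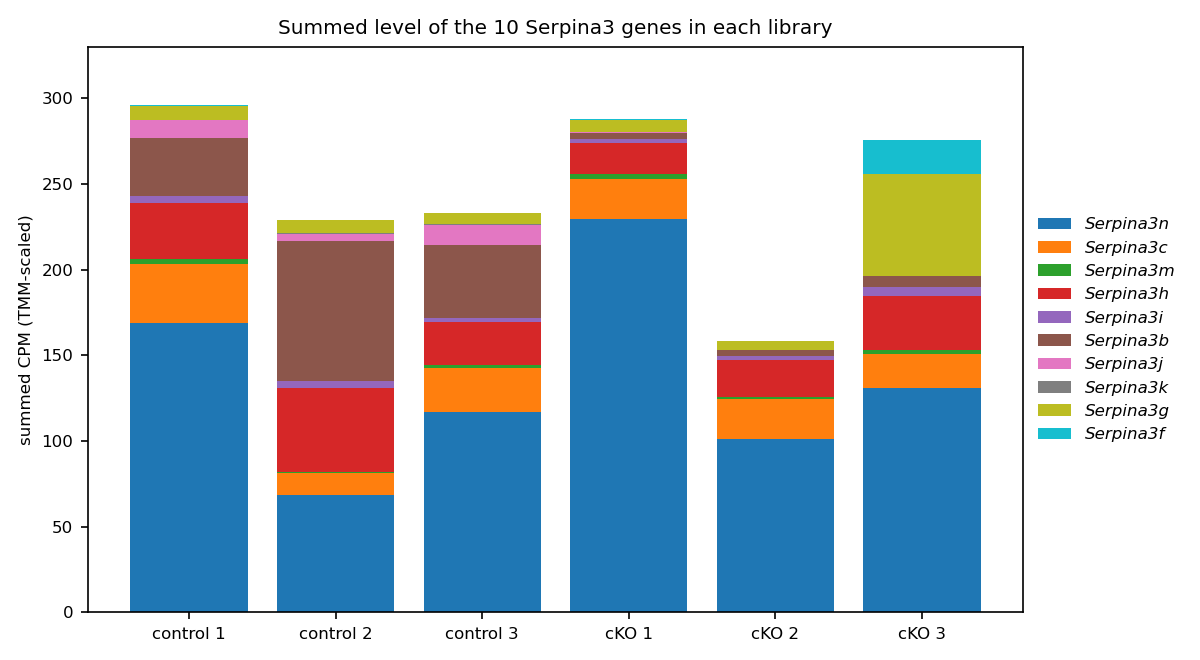
Summed level of the 10 Serpina3 genes in each library, in TMM-scaled CPM, as stacked bars by gene. The totals of 159 to 296 CPM overlap between the groups, the brown band of Serpina3b is thin in cKO, and the bands of Serpina3g and Serpina3f are wide in cKO 3.

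Levels were compared between genes on the deposited FPKM scale, which divides by gene length. In controls the order was Serpina3n (56.9 ± 24.5), Serpina3b (25.2 ± 12.1), Serpina3h (24.4 ± 8.06), Serpina3c (10.9 ± 4.82), Serpina3j (4.07 ± 1.89), Serpina3g (3.43 ± 0.466), Serpina3i (1.62 ± 0.634), Serpina3m (1.14 ± 0.744), Serpina3f (0.167 ± 0.125) and Serpina3k (0.144 ± 0.102 FPKM; SD, n = 3 each). Within this order, the mean ± SD intervals of Serpina3n and Serpina3b, Serpina3b and Serpina3h, Serpina3j and Serpina3g, Serpina3i and Serpina3m, and Serpina3f and Serpina3k overlapped, and the other neighbours were apart. In cKO, Serpina3n stayed first at 74.1 ± 32.0 FPKM and Serpina3h was next at 16.4 ± 5.11 FPKM. Serpina3b was at 2.09 ± 0.744 FPKM, in the sixth place, and Serpina3j at 0.034 ± 0.015 FPKM, above Serpina3k alone.

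No tested gene near the cluster had a fold change as low as those of Serpina3j and Serpina3b. Within 500 kb on either side lie 39 other genes of the table, of which 7 were tested, with log2 fold changes from -0.96 to 1.38. edgeR called 0 of them, 1 had an unadjusted p under 0.05, and DESeq2 called 1, the same gene, Serpina12, which was higher in cKO. Over all tested genes, 3.38% were higher at that unadjusted limit and 0.387% were called higher by DESeq2. Serpina12 encodes vaspin, a serpin that inhibits the skin protease Klk7. It held 1684, 2677 and 2609 counts in controls and 4008, 3458 and 3402 counts in cKO, so that each cKO library was above each control. The level was 120 ± 18.9 CPM in controls and 198 ± 23.1 CPM in cKO (SD, n = 3 each). edgeR gave a log2 fold change of 0.71 (SE 0.16) with an adjusted p of 0.559. Its direction was the opposite of that of Serpina3b and Serpina3j. Beyond the far end 3 genes were tested. Gsc, the nearest of them and a homeobox gene, had between 1 and 9 counts in controls and between 13 and 20 in cKO, which did not overlap, with a log2 fold change of 1.38 (SE 0.65, adjusted p = 0.949 by edgeR). Dicer1 and Clmn had log2 fold changes of 0.08 (SE 0.11) and 0.08 (SE 0.20). Of the 15 other clade A serpins listed, 2 were tested, Serpina12 and Serpina9 (0.56, SE 0.50), and the other 13 had too few counts.

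Proteases of the kinds that these serpins are known to bind, with their neighbours in skin, were listed as 22 genes, of which 19 were tested. Not every gene of the list, Mmp9 among them, is a known target. edgeR and DESeq2 called 0 of them, 3 had an unadjusted p under 0.05 with a higher level in cKO and 0 with a lower one (3.38% and 1.95% of all tested genes), and the median log2 fold change was 0.25, with 17 positive and 2 negative values. The 3 with the smallest p were Klk6, a kallikrein of the epidermis (log2 fold change 1.73, SE 0.64, adjusted p = 0.857), Mmp9, a gelatinase (2.10, SE 0.80, adjusted p = 0.866) and Klk5, which starts the kallikrein cascade of the stratum corneum (0.42, SE 0.17, adjusted p = 0.894), each by edgeR. Mmp9 was at 52.2 CPM in cKO 1 and at no more than 8.37 CPM elsewhere, and Klk6 at 72.9 CPM in cKO 1 and at no more than 20.2 CPM elsewhere. Both were thus led by cKO 1, in which Serpina3n, S100a8, S100a9 and Cxcr2 were highest but Mpo and Ly6g were not. Cathepsin G, encoded by Ctsg and the classic target of antichymotrypsin, was at 3.45 ± 0.900 CPM in controls and 2.59 ± 0.220 CPM in cKO (SD, n = 3 each), with a log2 fold change of -0.41 (SE 0.29). Ctsg was singled out after its values were seen.

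The acute phase and interleukin 6 family list had 17 tested genes of 22. edgeR and DESeq2 called 0, and 2 had an unadjusted p under 0.05 with a higher level in cKO, against 3.38% of all tested genes. These were Osm, encoding oncostatin M (log2 fold change 1.98, SE 0.62, adjusted p = 0.811 by edgeR), and Osmr, encoding its receptor (0.37, SE 0.15, adjusted p = 0.917 by edgeR). Il6ra came next with -0.26 (SE 0.11, adjusted p = 0.933 by edgeR). The median was 0.22, with 13 positive and 4 negative values. Of the 12 glucocorticoid targets, all tested, 0 were called by either tool, 0 had an unadjusted p under 0.05, and 6 were positive and 6 negative, with a median of -0.01. The smallest p there belonged to Mt2, a metallothionein (0.59, SE 0.36, adjusted p = 0.981 by edgeR).

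Profiles over the 6 libraries were compared by the root mean square distance between centred log2 CPM values, as a description with no test. Only the 17318 tested genes were compared, so Serpina3f and Serpina3k were left out. Among the tested genes, the nearest to Serpina3j was Serpina3b, at a distance of 1.35, followed by Scd3 (1.42), Mpo, the neutrophil peroxidase (1.46), Tgm7, a transglutaminase (1.65), and Adam3, a membrane protein of the ADAM family (1.71). All 5 were lower in each cKO library than in each control, which a choice by nearness to the Serpina3j profile favours. Serpina3n lay much nearer to its neighbours, which were Il1rl1, the receptor of interleukin 33 (0.10), Slc8a1, a sodium and calcium exchanger (0.11), Gm16409 (0.13), Mylf-ps (0.14) and Cpxm1, a carboxypeptidase-like protein (0.14). Among the members, Serpina3m and Serpina3n were the closest pair at 0.23, followed by Serpina3h and Serpina3i at 0.38 and Serpina3c with Serpina3n at 0.40. The nearest genes of Serpina3g, named after its values were seen, were Gbp4 (0.24), Sumo2 (0.28), H2-Q7 (0.28), Tgtp2 (0.29) and Igtp (0.33), and that of Serpina3b was Scd3 (0.72). The libraries share depth and tissue make-up across all genes, so such likeness says nothing of shared control.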

How the data were processed

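RNA-seq of bulk ear skin was analysed in 6 libraries, 3 control and 3 cKO, grouped by their titles. The deposited counts per gene are whole numbers that differ in total between libraries, and they are named as counts per the file headers. The authors also deposited FPKM values, per the file headers, each of which equals the count over gene length and an effective library size of 97.6% to 104.4% of the total. The deposited table further holds the authors' normalized mean count of each group (a signal value), their log2 fold changes and their p-values, with the test not named. Per the submitters' processing notes, HISAT2, HTSeq and mm10 were used, and versions, strand setting and the treatment of reads that map to several genes are not given in the sources used here.

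The members and all lists were chosen with earlier results of these data known. Counts were tested with edgeR 4.0.16 in R 4.3.3 (filterByExpr, TMM, robust quasi-likelihood F test, Benjamini-Hochberg over 17318 genes, two-sided, threshold 0.05). DESeq2 1.42.0, limma 3.58.1 (voom, and limma-trend on log2 FPKM with a pseudocount of 1 or 0.1 where the mean FPKM reached 0.5) and other scalings and filters served as alternatives. CPM values used TMM-scaled totals, and distances used a prior count of 2. The SE of a fold change is its size over the square root of its F value. Count ratios have exact Clopper-Pearson intervals at 95%, and a count of 0 allows up to 3 counts. The genes named are all members, up to 3 genes of each functional list with the smallest unadjusted p, and the 5 genes nearest in profile to Serpina3j and Serpina3n. A gene of the interferon gamma list is counted in it but not reported here by name. Marker genes are named to give values beside a result. Transcripts came from GENCODE M21 and promoter windows from RefSeq (GRCm38.p6). Pairs of libraries differed by at least 16.6 times the chi-square of sampling noise, so none is a duplicate. The deviations of same-numbered libraries correlated at 0.22, -0.04 and -0.04, and no pairing was used in the main fit. With 3 libraries per group, these values do not settle whether the replicate numbers pair the libraries. edgeR, DESeq2 and limma-voom at their main settings were checked on simulated counts, where a larger share of DESeq2's calls than of edgeR's was false. These counts were drawn with dispersions estimated by edgeR and without outlying libraries, so the check does not rank the tools on these data. The other alternatives were not simulated. Genes called by DESeq2 but not by the main edgeR fit stay less certain, because the tools differ on them.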

Additional observations from a re-analysis of the deposited data

How the results depend on the processing

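edgeR called 1 member lower with all libraries. DESeq2 and the fit with the replicate block each called 2, which added Serpina3b, and limma-voom, log2(FPKM + 1) and log2(FPKM + 0.1) each called 0. Leaving out 1 library gave 0 to 2, with 2 (Serpina3b and Serpina3j) without control 2 and 0 without any other library. No alternative called a member higher. Over the whole table edgeR called 1 gene lower and 2 higher. These counts were 24 and 67 with DESeq2, 0 and 0 with limma-voom and on both FPKM scales, 7 and 18 with no filter beyond 1 count, 2 and 10 with the replicate block, and 0 to 2 and 0 to 2 when 1 library was left out. Not every library correlated best with its own replicate number, and with so few libraries this does not settle whether the numbers pair them. DESeq2 alone called a gene of the 5 functional lists and of the neighbours, in each case 1, Serpina12. The marker lists are left out of this count. The causes of these shifts were not tested. The log2 fold change of Serpina3b ran from -3.92 to -3.01, that of Serpina3h from -0.85 to -0.28, and that of Serpina3j from -7.19 to -2.21, where the last was on the log2(FPKM + 1) scale, which understates the change of low genes. When 1 library was left out, signs turned for Serpina3c (range -0.43 to 0.19, the latter without control 1), Serpina3g (-0.18 without cKO 3 to 2.20), Serpina3i (-0.56 to 0.14, with 0.10 without control 1, 0.08 without control 2, 0.08 without cKO 1 and 0.14 without cKO 2), Serpina3m (-0.13 without control 2 and -0.05 without cKO 1, up to 0.83) and Serpina3n (-0.022 without cKO 1, up to 0.73). The ratio of the summed cluster ran from 0.644 to 1.11, within its error of 0.316 under all 10 alternatives. The sum of FPKM and the interferon list without cKO 3, where 1 in place of 8 genes had an unadjusted p under 0.05, were added after seeing the data. Serpina3j had 4 counts in all in cKO and Serpina3k 1, so depth limits how exactly their fold can be given.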
